A study of Capra hircus with 9 samples.

Results

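Kallikreins and other epithelial serine proteases were examined in RNA sequencing libraries of goat rumen epithelium, the stratified squamous lining of the largest forestomach of ruminants. The genes were taken by name: every gene of the files called KLK followed by a number, and PRSS27, PRSS8, PRSS22, ST14 and SPINT1. This gave 12 of the 18383 genes named in the files, 8 kallikreins and 4 others, while PRSS22 was not analysed here. The goats (Capra hircus) were 4 months old and were fed 1 of 3 concentrate diets, which the labels name HC, MC and LC without spelling the letters out, with 3 libraries for each diet. All groups share tissue, age and the preparation from total RNA of frozen epithelium, and no genotype, sex, breed or other treatment is stated. Nothing in the labels ties each library to an animal of its own, so a p-value here covers the spread among these 9 libraries, which may be technical. The set was selected on names, with earlier FPKM results of the same libraries known, and by these values PRSS27 had already stood out in HC against LC, so for that gene the difference between HC and LC is given with no test, and the p-values of the others describe their size against the spread between libraries and are no independent support.

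Kallikreins are secreted serine proteases, encoded side by side in 1 gene cluster in mammals, which are made as inactive precursors and activate one another. In human epidermis they cut the proteins that hold the outermost cells together, so that these cells can be shed, and they are held in check by inhibitors of the SPINK family such as SPINK5. PRSS8 (prostasin) and ST14 (matriptase) are membrane-anchored serine proteases that act together at the surface of epithelial cells in barrier formation, and SPINT1 is the membrane-bound inhibitor of ST14. The rumen lining is a keratinising epithelium that takes up short-chain fatty acids made by microbes, and like epidermis it renews itself by shedding its outer layer.

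The deposited values are FPKM, sequenced fragments corrected for the length of the transcript and for the size of the library, so levels of different genes can be compared per length. No read counts were used, so the depth of the libraries is unknown and their number limits the precision. The summed FPKM of a library ran from 755624 in LC replicate 1 to 1051183 in HC replicate 2. Markers of basal keratinocytes (6 of 7 listed) summed to 4302 to 6465 FPKM in HC, 5043 to 5808 FPKM in MC and 3969 to 6102 FPKM in LC. Those of upper epithelial layers (10 of 12 listed) summed to 1287 to 2002, 1825 to 2228 and 1351 to 1937 FPKM in HC, MC and LC. Epithelium was thus present in each library, while KRT1 of epidermis was at or near 0. All 7 smooth muscle markers were listed, and their sum ran from 109 to 143 FPKM in HC, from 1147 to 3543 FPKM in MC and from 55.7 to 2297 FPKM in LC. In MC replicates 1 and 2 and in LC replicate 1 it exceeded the sum of the upper epithelial layers, so the libraries differed in tissue make-up. Mast cells, another source of serine proteases, left little trace: 4 of their 8 markers were listed and summed to at most 0.674 FPKM in any library. The 6 markers of macrophages and Langerhans cells, all listed, summed to 20.3 to 25.4 FPKM in HC, 7.95 to 15.1 FPKM in MC and 33.0 to 41.5 FPKM in LC, with no overlap of the diets. Single markers did not all share that order. C1QA, C1QB and CSF1R were lower in every MC library than in any HC library, while CD207, CD68 and AIF1 overlapped between HC and MC. The neutrophil list (5 of 7 listed) summed to 23.4 to 47.9 FPKM in HC, 19.2 to 41.8 FPKM in MC and 1503 to 2761 FPKM in LC, nearly all of it S100A12, while CSF3R and MPO were at or near 0. T and NK cell markers (6 of 8 listed) summed to 11.4 to 17.2 FPKM in any library, but single markers went opposite ways. NKG7, most of the sum in HC and MC, stood at 7.98 FPKM or more there and at 3.04 FPKM or less in LC. CD3E stood at 3.51 FPKM or more in LC and at 0.831 FPKM or less in HC and MC. CD3D, CD2, CD247 and PRF1 were also higher in every LC library than in any other, so the sum does not show even levels of these cells. The fibroblast list (6 of 6) ran from 122 to 268 FPKM in HC, 119.6 to 274 FPKM in MC and 205 to 508 FPKM in LC, and that of endothelium (5 of 5) from 6.54 to 12.1, 10.3 to 23.5 and 13.7 to 43.1 FPKM in HC, MC and LC. In bulk tissue, fewer cells of a type and less RNA per cell cannot be told apart.

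KLK12, a trypsin-like kallikrein and the most abundant member of the family here, was high with HC and LC and low with MC. It stood at 43.4, 34.1 and 56.1 FPKM in HC, at 6.12, 3.79 and 4.2 FPKM in MC and at 54.5, 84.9 and 83.6 FPKM in LC. Every MC library lay below all others, whereas the highest HC library passed the lowest LC library. The means were 44.5 ± 11.0 FPKM in HC, 4.70 ± 1.25 FPKM in MC and 74.3 ± 17.2 FPKM in LC (SD, n = 3 each), a 15.8-fold lower mean in MC than in LC. On the log2(FPKM + 1) scale, where changes of weakly expressed genes come out too small, KLK12 fell by 3.72 ± 0.23 (SE) in MC against LC (limma adjusted p = 1.86e-06), and HC exceeded MC by 2.99 ± 0.23 (limma adjusted p = 2.68e-05). Among the 11668 genes tested its log2 change was number 10 from the lowest in MC minus LC and number 7 from the highest in HC minus MC. HC lay below LC by a smaller step (log2 change -0.73 ± 0.23, limma adjusted p = 0.0366), which no longer passed with median-of-ratios scaling (adjusted p = 0.0646), without HC replicate 1 (0.0836) or 2 (0.127), without LC replicate 2 (0.116) or 3 (0.0972), or with LC replicate 3 as the sole LC library (log2 change -0.92, adjusted p = 0.0685).

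Markers of other cell types also differed between these libraries. The macrophage and Langerhans cell sum had the order of KLK12, lowest in MC and highest in LC, and its part in the KLK12 result was not tested. Its markers CD207, CD68 and AIF1 overlapped between HC and MC. The sum of smooth muscle markers was high in all MC libraries and in LC replicates 1 and 2. ACTA2 did not share that pattern, at 25.1 to 32.4 FPKM in HC, 14.8 to 31.0 FPKM in MC and 9.19 to 23.0 FPKM in LC. MC replicate 3 held 1147 FPKM of smooth muscle markers and 4.2 FPKM of KLK12, against 2297 and 1244 FPKM of these markers and 54.5 and 84.9 FPKM of KLK12 in LC replicates 1 and 2. With the mean of these markers as a covariate, chosen after seeing the data, MC minus LC was -3.60 (limma adjusted p = 2.94e-06). HC minus MC was then 2.75 (limma adjusted p = 9.61e-04). The marker sums of these 2 diets did not overlap, at 109 to 143 FPKM in HC and 1147 to 3543 FPKM in MC. With LC replicate 3, which held 55.7 FPKM of these markers, as the sole LC library, MC minus LC was -3.91. In HC minus MC, smooth muscle cannot be told apart from the diet, and its part in the KLK12 result was not tested.

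KLK14, a trypsin-like kallikrein that in human epidermis takes part in shedding, was highest in HC and lowest in MC. It stood at 12.3, 12.3 and 19.9 FPKM in HC, at 1.53, 0.518 and 1.93 FPKM in MC and at 6.55, 4.31 and 5.23 FPKM in LC. The 3 diets did not overlap. KLK14 rose by 1.30 ± 0.26 on the log2 scale in HC against LC (limma adjusted p = 0.00531) and by 2.79 ± 0.26 in HC against MC (limma adjusted p = 1.24e-04), and it fell by 1.49 ± 0.26 in MC against LC (limma adjusted p = 0.00165). The means of 14.8 ± 4.35 FPKM in HC, 1.33 ± 0.729 FPKM in MC and 5.36 ± 1.13 FPKM in LC (SD, n = 3 each) made HC 11.2-fold higher than MC and 2.77-fold higher than LC. KLK12 and KLK14 thus shared the low level in MC, while the mean of KLK14 was higher and that of KLK12 lower in HC than in LC. With LC replicate 3 as the sole LC library the rise in HC against LC was as large (log2 1.31) with a limma adjusted p of 0.0586.

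KLK13 was low throughout and again lowest in MC. It had 1.21, 0.674 and 1.52 FPKM in HC, 0.258, 0.274 and 0.300 FPKM in MC and 1.6, 1.40 and 1.89 FPKM in LC. Every MC library lay below all others, and HC and LC overlapped. MC minus LC was -1.04 ± 0.17 (limma adjusted p = 7.98e-04) and HC minus MC 0.72 ± 0.17 (limma adjusted p = 0.0106), but HC minus MC no longer passed without HC replicate 3 (adjusted p = 0.0556) or with the smooth muscle covariate (log2 change 0.59, adjusted p = 0.172). HC minus LC was -0.32 ± 0.17 (limma adjusted p = 0.189). KLK13 met the requirement of 1 FPKM in 3 libraries through 5 libraries of HC and LC and none of MC, so its entry into the test rested on the diets in which it is high.

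**Figure D1:**
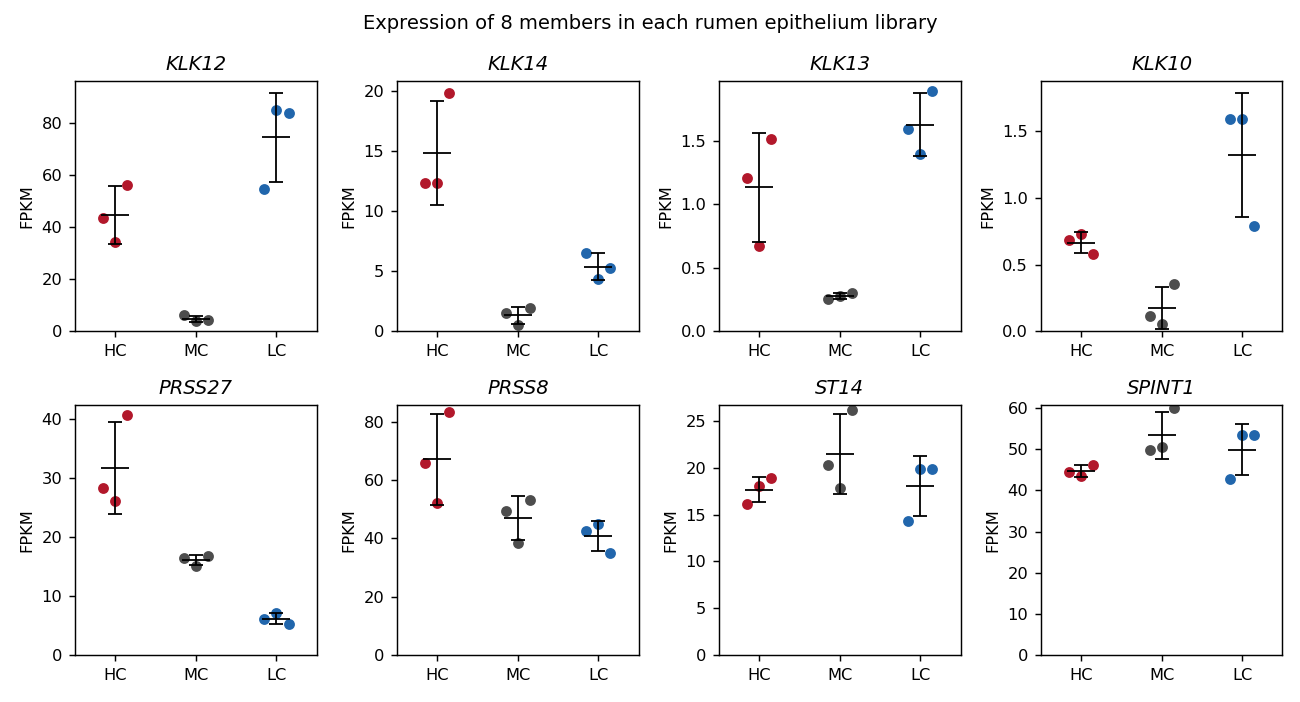
FPKM (linear axes from 0) of 8 genes in each library, with HC, MC and LC from left to right; points are libraries, the horizontal mark is the mean and the bar the SD of 3 libraries. KLK12, KLK14, KLK13 and KLK10 are lowest in MC, PRSS27 steps down over HC, MC and LC, and HC and LC overlap for ST14 and SPINT1.

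The other kallikreins were at the edge of detection. KLK10 was listed in all 9 libraries, at 0.687, 0.727 and 0.576 FPKM in HC, 0.117, 0.0505 and 0.354 FPKM in MC and 1.59, 1.59 and 0.786 FPKM in LC, too low to be tested. The 3 diets did not overlap for KLK10 either, with MC lowest and LC highest. Its locus is that of a second gene, LOC106503145, listed at 2.36 FPKM in MC replicate 1 and 2.12 FPKM in LC replicate 3, so the value of KLK10 is uncertain. KLK7, the chymotrypsin-like kallikrein of human epidermal shedding, was listed in MC replicates 1 and 2 at 0.0453 and 0.0840 FPKM. KLK9 was listed in LC replicates 1 and 3 at 0.158 and 0.171 FPKM, KLK11 in 3 libraries at 0.0250 to 0.0553 FPKM, and KLK15 in HC replicate 1 at 0.0558 FPKM.

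All 8 kallikreins lie together on chromosome 18, in the order KLK15, KLK7, KLK9, KLK10, KLK11, KLK12, KLK13 and KLK14. KLK12 spans 55454385 to 55462554, KLK13 55467651 to 55481135 and KLK14 55486312 to 55492130, on the assembly of the files, whose build is not given in the sources used here. The 4 kallikreins listed in every library are neighbours in this row apart from KLK11, and summed they gave 57.7, 47.8 and 78.0 FPKM in HC, 8.03, 4.63 and 6.78 FPKM in MC and 64.2, 92.2 and 91.5 FPKM in LC. KLK12 made up 71.3% to 75.3% of that sum in HC, 61.9% to 81.8% in MC and 84.8% to 92.1% in LC. The nearest genes outside the cluster that could be tested did not share the low MC level. On one side CTU1, a tRNA-modifying enzyme gene, had 5.21 to 6.67 FPKM in HC, 5.88 to 7.47 FPKM in MC and 4.17 to 8.36 FPKM in LC and passed the test in no contrast. On the other side C18H19orf48 was higher in MC, at 7.92, 6.34 and 6.21 FPKM against 2.98, 2.96 and 2.81 FPKM in LC (log2 change 0.99 ± 0.12, limma adjusted p = 1.2e-04). Kallikreins are related in sequence, and how reads that match more than 1 gene were assigned is not stated, so values of single kallikreins carry that uncertainty.

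**Figure D2:**
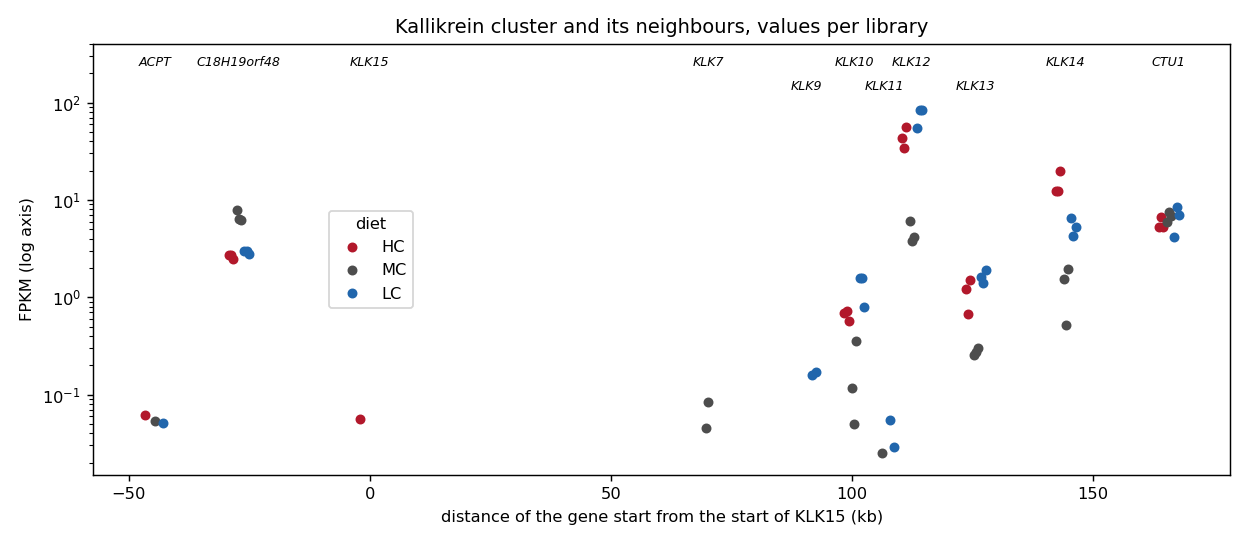
FPKM per library (log axis) of the kallikreins and their nearest listed neighbours against the distance of each gene's start from that of KLK15 in kb, coloured by diet; a library in which a gene is not listed has no point, and LOC106503145, at the locus of KLK10, is left out. The MC points of KLK10, KLK12, KLK13 and KLK14 lie below those of HC and LC, and those of CTU1 and C18H19orf48 do not.

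Genes that mark the upper layers of the epithelium did not fall together in MC. Of 8 tested, 2 were higher in MC than in LC, 2 were lower and 4 did not pass, where 16.2% of all genes were higher and 17.1% lower. The lower ones were KRT4, a keratin of upper layers of mucosal epithelia, and CNFN, a protein of the cornified envelope. KRT4 had 17.9, 16.1 and 29.2 FPKM in HC, 1.65, 2.18 and 2.25 FPKM in MC and 31.6, 60.1 and 69.8 FPKM in LC (MC minus LC -4.11 ± 0.30, limma adjusted p = 1.51e-05; HC minus MC 2.83 ± 0.30, limma adjusted p = 3.17e-04). That is the order of diets seen for KLK12, and its part in the KLK12 result was not tested. TGM1, which crosslinks the cornified envelope, went the other way, with 204, 153 and 242 FPKM in HC, 308, 299 and 400 FPKM in MC and 129, 180 and 167 FPKM in LC (MC minus LC 1.08 ± 0.20, limma adjusted p = 0.00197).

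PRSS27 (marapsin), a serine protease of stratified squamous epithelia, lies on chromosome 25 at 2142844 to 2150528 and followed another order, with HC highest and LC lowest. It stood at 28.4, 26.1 and 40.7 FPKM in HC, at 16.4, 15.1 and 16.8 FPKM in MC and at 6.03, 7.13 and 5.29 FPKM in LC. No library of 1 diet reached the range of another. The means of 31.7 ± 7.85 FPKM in HC and 6.15 ± 0.925 FPKM in LC (SD, n = 3 each) differed 5.16-fold, by 2.18 on the log2 scale, the contrast for which the gene was chosen. MC lay between them at 16.1 ± 0.891 FPKM (SD, n = 3), 1.27 ± 0.16 above LC on the log2 scale (limma adjusted p = 1.63e-04). HC exceeded MC by 0.91 ± 0.16 (limma adjusted p = 0.00263). These contrasts share their libraries with that of HC and LC. In the ranking of all genes listed in a library, which no scaling changes, PRSS27 stood at the 81.8 to 87.1 percentile in HC, the 74.2 to 75.3 percentile in MC and the 52.2 to 58.9 percentile in LC.

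PRSS8, which activates the epithelial sodium channel and is needed for the skin barrier in mice, lies on the same chromosome at 27265612 to 27270957. It stood at 66.0, 52.1 and 83.5 FPKM in HC, at 49.4, 38.5 and 53.1 FPKM in MC and at 42.7, 44.9 and 34.9 FPKM in LC. All HC libraries were above all LC libraries, and MC overlapped with both. HC minus LC was 0.69 ± 0.19 (limma adjusted p = 0.0195), a 1.65-fold difference of the means, which no longer passed without HC replicate 3 (adjusted p = 0.0918), without LC replicate 3 (0.0621) or with LC replicate 3 as the sole LC library (log2 change 0.90, adjusted p = 0.0523). HC minus MC was 0.49 ± 0.19 (limma adjusted p = 0.0713). It passed with median-of-ratios scaling (log2 change 0.61, adjusted p = 0.0288) and without HC replicate 2 (log2 change 0.66, adjusted p = 0.0361). MC minus LC was 0.19 ± 0.19 (limma adjusted p = 0.458).

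ST14, the membrane protease that activates PRSS8 in mouse epidermis, and its inhibitor SPINT1 passed the test in no contrast. ST14 (chromosome 29, 35154894 to 35171472) had 16.2, 18 and 18.9 FPKM in HC, 20.3, 17.8 and 26.1 FPKM in MC and 14.3, 19.9 and 19.9 FPKM in LC. SPINT1 (chromosome 10, 32750327 to 32761620) had 44.5, 43.4 and 46.2 FPKM in HC, 49.8, 50.4 and 60.0 FPKM in MC and 42.8, 53.6 and 53.3 FPKM in LC. The diets overlapped for both genes except that every HC library of SPINT1 lay below every MC library (HC minus MC -0.25 ± 0.13, limma adjusted p = 0.194). For ST14 the log2 changes were -0.015 ± 0.16 in HC minus LC (limma adjusted p = 0.956), 0.24 ± 0.16 in MC minus LC (0.293) and -0.25 ± 0.16 in HC minus MC (0.277). For SPINT1 they were -0.15 ± 0.13 in HC minus LC (limma adjusted p = 0.445) and 0.099 ± 0.13 in MC minus LC (0.609). With these errors and 3 libraries a diet, a p that misses the threshold does not show that the levels were equal.

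Set against all genes, the 7 members tested were called as follows, leaving out PRSS27 in HC minus LC, for which it was chosen, and KLK13 in the contrasts with MC, because its entry into the test rested on HC and LC. In HC minus LC, KLK14 and PRSS8 were higher and KLK12 lower, 2 higher and 1 lower of 6, where 7.79% of all genes were higher and 17.4% lower. The libraries of HC and LC did not overlap for 2 of these 6 members and 40.6% of all genes. In MC minus LC 1 was higher (PRSS27) and 2 lower (KLK12 and KLK14) of 6, where 16.2% of all genes were higher and 17.1% lower, and the libraries did not overlap for 3 of 6 members and 47.1% of all genes. In HC minus MC 3 were higher (KLK12, KLK14 and PRSS27) and 0 lower of 6, where 8% of all genes were higher and 17% lower, and the libraries did not overlap for 4 of 6 members and 46.4% of all genes. The median log2 change of these members was -0.081, 0.15 and 0.70 in HC minus LC, MC minus LC and HC minus MC, against -0.10, -0.0067 and -0.10 for all genes tested. Changes that involve HC are read against that shift of the deposited scale. With median-of-ratios scaling, which removes the shift, 1494 genes were higher and 1329 lower in HC minus LC (909 and 2030 as deposited), and 1513 were higher and 1319 lower in HC minus MC (933 and 1984 as deposited). Of all genes, 5.02% were lower in MC than in both other diets by this test, as KLK12 and KLK14 were. Since the members were chosen with results known, these counts describe them and show nothing particular to the family.

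**Figure D3:**
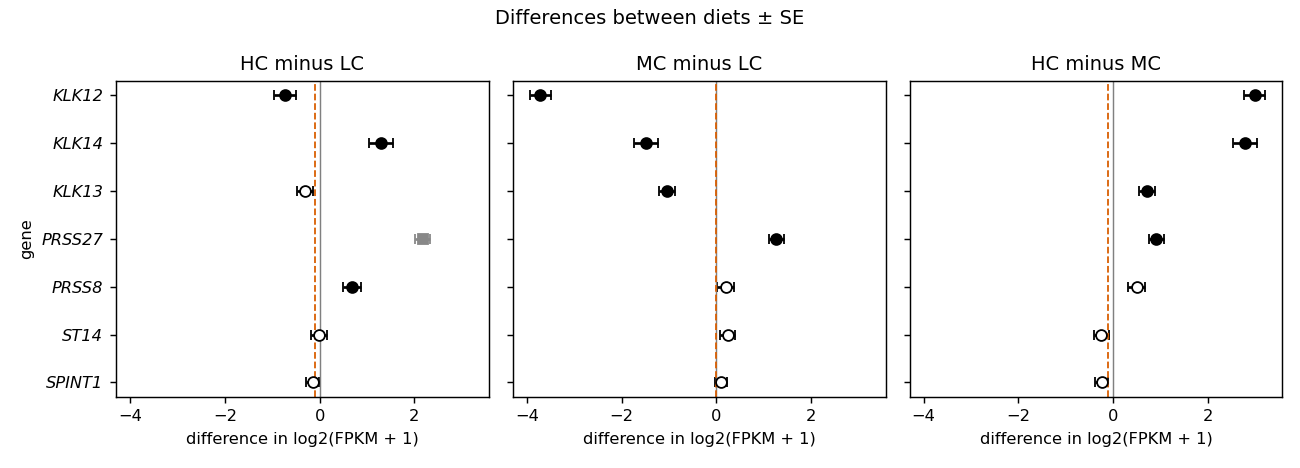
Difference in log2(FPKM + 1) ± SE of the 7 members tested, by contrast; filled circles passed the limma test (adjusted p under 0.05), open ones did not, and the grey square is PRSS27 in HC minus LC, given with no test. The dashed line is the median of all genes tested; KLK12, KLK14 and KLK13 lie left of 0 in MC minus LC and right of it in HC minus MC.

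Ratios of genes within a library do not change with its scaling, and they were chosen after the values were seen. KLK12 over KLK14 was 3.52, 2.77 and 2.82 in HC, 4.00, 7.31 and 2.17 in MC and 8.31, 19.7 and 15.98 in LC, so the make-up of the kallikreins in HC differed from that in LC with no overlap. KLK12 over PRSS8 was 0.658, 0.653 and 0.672 in HC, 0.124, 0.0983 and 0.0791 in MC and 1.28, 1.89 and 2.40 in LC, again with no overlap of the 3 diets, and with HC libraries that lay close together. PRSS27 over PRSS8 was 0.430, 0.501 and 0.488 in HC, 0.332, 0.392 and 0.317 in MC and 0.141, 0.159 and 0.152 in LC. The HC and LC values of PRSS27 in this ratio are those for which the gene was chosen, and the ratio is given as a description. PRSS8 over its inhibitor SPINT1 was 1.48, 1.2 and 1.81 in HC, 0.991, 0.764 and 0.885 in MC and 0.998, 0.839 and 0.653 in LC, with every HC library above the others. ST14 over SPINT1 stayed between 0.334 and 0.436 in all libraries.

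**Figure D4:**
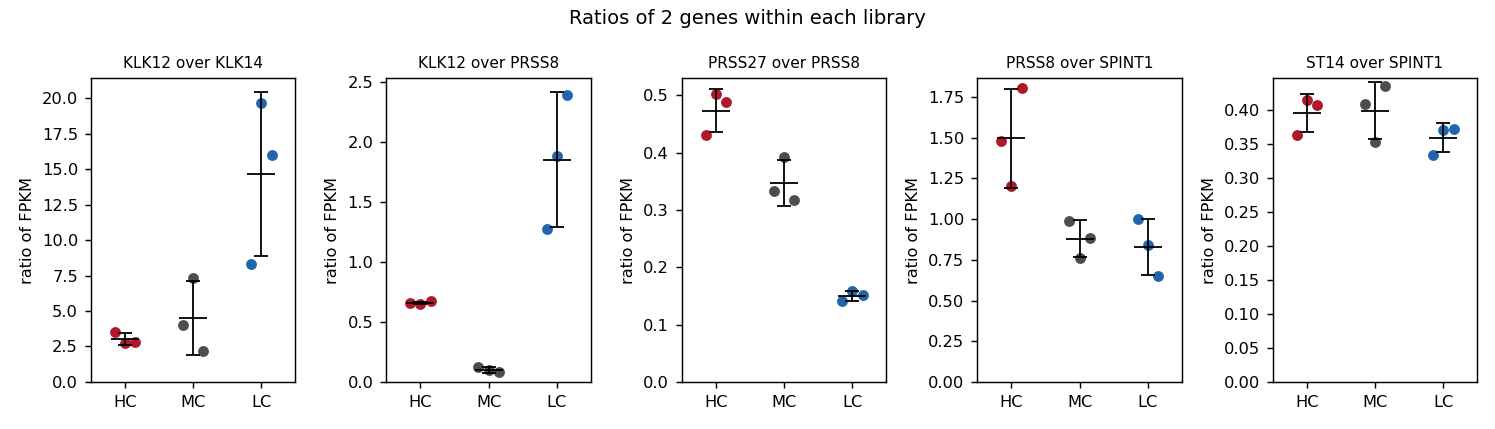
Ratio of the FPKM of 2 genes in each library (linear axes from 0), with HC, MC and LC from left to right; points are libraries, the horizontal mark is the mean and the bar the SD of 3 libraries. KLK12 over PRSS8 separates the 3 diets, and ST14 over SPINT1 overlaps between them.

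Inhibitors of serine proteases differed between the diets in both directions. Of 18 in the list 9 were listed and 4 tested, with 1 higher and 1 lower in HC minus LC (7.79% and 17.4% of all genes), 1 and 1 in MC minus LC (16.2% and 17.1%) and 0 and 1 in HC minus MC (8% and 17%). SPINK9, an inhibitor of the kallikrein KLK5 in human skin, was lower in HC and in MC than in LC, with 249.7, 161 and 218 FPKM in HC, 273, 253 and 253 FPKM in MC and 684, 1265 and 1312 FPKM in LC. SPINK9 changed by -2.34 ± 0.25 in HC minus LC (limma adjusted p = 6.66e-05) and by -2.00 ± 0.25 in MC minus LC (limma adjusted p = 1.23e-04). SPINK7, an inhibitor of esophageal epithelium in humans, was low at 2.77 ± 0.991 FPKM in HC, 2.56 ± 0.714 FPKM in MC and 1.13 ± 0.239 FPKM in LC (SD, n = 3 each) and rose in HC and in MC against LC (limma adjusted p = 0.0149 and 0.0174). SPINK5, the main inhibitor of epidermal kallikreins in humans, had 249, 117 and 220.3 FPKM in HC, 356, 421 and 506 FPKM in MC and 188, 386 and 462 FPKM in LC. HC fell below MC for SPINK5 (log2 change -1.18 ± 0.36, limma adjusted p = 0.0388), and neither diet differed from LC by the test (adjusted p = 0.136 in HC and 0.444 in MC). SPINT2, which also inhibits PRSS8 and ST14, was far more abundant than SPINT1 at 631 ± 49.9 FPKM in HC, 633 ± 49.7 FPKM in MC and 541 ± 108 FPKM in LC (SD, n = 3 each) and passed in no contrast.

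Other serine proteases of the list, 9 of 20 tested, changed in a few members. In HC minus LC 0 of 9 were higher and 2 lower (7.79% and 17.4% of all genes), in MC minus LC 0 and 2 (16.2% and 17.1%), and in HC minus MC 2 and 2 (8% and 17%). Their median log2 change was -0.29, -0.31 and 0.022 in these contrasts. PLAU, the urokinase that activates plasminogen, was lower in HC at 1.13 ± 0.298 FPKM and in MC at 2.04 ± 0.604 FPKM than in LC at 6.19 ± 0.813 FPKM (SD, n = 3 each; limma adjusted p = 3.70e-05 in HC and 2.38e-04 in MC). PRSS12, known as a protease of neurons, was low in MC (2.70 ± 0.117 FPKM) against 6.62 ± 0.503 FPKM in LC (limma adjusted p = 3.96e-04), with 5.26 ± 1.43 FPKM in HC. TMPRSS13, a membrane protease related to ST14, had 100.4 ± 12.03 FPKM in HC and 67.3 ± 7.53 FPKM in MC (SD, n = 3 each; HC minus MC 0.57 ± 0.16, limma adjusted p = 0.0232), against 89.9 ± 13.7 FPKM in LC. HTRA1, a secreted protease, had 60.8 ± 6.45 FPKM in HC against 111 ± 0.968 FPKM in MC and 99.7 ± 5.39 FPKM in LC (SD, n = 3 each; limma adjusted p = 9.47e-04 against MC and 0.00230 against LC).

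Substrates and receptors of these proteases were listed for 23 of 25 genes and tested for 14. In HC minus LC 2 of 14 were higher and 3 lower (7.79% and 17.4% of all genes), in MC minus LC 1 and 5 (16.2% and 17.1%), and in HC minus MC 2 and 3 (8% and 17%). Their median log2 change was -0.17, -0.15 and 0.0031 in these contrasts. F2RL1, the protease-activated receptor PAR2 that KLK14 and ST14 can cleave in human and mouse cells, was higher in HC and in MC, with 20.7, 22.9 and 21.5 FPKM in HC, 22.8, 18.7 and 24.0 FPKM in MC and 13.2, 12.1 and 13.1 FPKM in LC. F2RL1 rose by 0.72 ± 0.12 in HC against LC (limma adjusted p = 0.00146) and by 0.72 ± 0.12 in MC against LC (limma adjusted p = 9.07e-04), although KLK14 was highest in HC and lowest in MC. CDCP1, a surface protein that ST14 can cleave, was lower in MC at 5.44 ± 1.30 FPKM than in LC at 9.97 ± 0.496 FPKM (SD, n = 3 each; limma adjusted p = 0.00345). In HC it stood at 10.2 ± 2.02 FPKM (SD, n = 3), above MC by 0.80 ± 0.16 on the log2 scale (limma adjusted p = 0.00533), so CDCP1 too was lowest in MC. MET, the receptor of the hepatocyte growth factor that ST14 can activate, fell to 1.29 ± 0.244 FPKM in HC and 1.48 ± 0.250 FPKM in MC, against 4.09 ± 0.329 FPKM in LC (SD, n = 3 each; limma adjusted p = 1.78e-04 in HC and 2.10e-04 in MC). DSG3, a desmosomal cadherin, had 179.98 ± 24.7 FPKM in HC, 339 ± 65.6 FPKM in MC and 369 ± 84.6 FPKM in LC (SD, n = 3 each; limma adjusted p = 0.00388 for HC against LC and 0.00794 for HC against MC). DSG1 and CDSN, which kallikreins cut in human epidermis, were too low to be tested. DSG1 averaged 0.0423 FPKM in HC, 0.0814 FPKM in MC and 0.0890 FPKM in LC. CDSN stood at 0.430, 0.633 and 0.449 FPKM in HC and at 0.0321, 0.115 and 0.141 FPKM in MC, against 0.0237 and 0.0758 FPKM in LC replicates 1 and 3, and it was not listed in LC replicate 2. Every HC library of CDSN lay above all listed values of the other diets.

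A list of other proteases and protease inhibitors, mainly cathepsins, which macrophages also express, had 11 genes tested. In HC minus LC 2 were higher and 4 lower (7.79% and 17.4% of all genes), in MC minus LC 0 and 6 (16.2% and 17.1%), and in HC minus MC 2 and 0 (8% and 17%). Their median log2 change was -0.19, -0.52 and 0.44 in these contrasts. The summed markers of macrophages and Langerhans cells, 20.3 to 25.4 FPKM in HC, 7.95 to 15.1 FPKM in MC and 33.0 to 41.5 FPKM in LC, were highest in LC and lowest in MC, and their part in these values was not tested. Of these markers, CD207, CD68 and AIF1 overlapped between HC and MC. CTSL, a lysosomal cysteine protease, had 4.502 ± 0.520 FPKM in HC and 2.25 ± 0.598 FPKM in MC against 8.74 ± 1.89 FPKM in LC (SD, n = 3 each; MC minus LC -1.58 ± 0.17, limma adjusted p = 5.24e-05). CTSB, CTSC and CTSH were lower in HC and in MC than in LC, with log2 changes in MC of -0.43, -0.61 and -1.61 (limma adjusted p = 0.0194, 0.00600 and 7.82e-04). ASPRV1, counted above as higher in HC minus LC and in HC minus MC, had 1.49, 1.46 and 2.11 FPKM in HC. Outside HC it reached 1 FPKM in LC replicate 3 alone (1.15 FPKM), so its entry into the test rested mainly on the diet in which it is high. Transcription factors of stratified epithelia, a list of mostly upper-layer factors that also holds the basal keratinocyte marker TP63, had 15 genes tested. In HC minus LC 2 were higher and 2 lower (7.79% and 17.4% of all genes), in MC minus LC 1 and 6 (16.2% and 17.1%), and in HC minus MC 6 and 2 (8% and 17%), TP63 among the 6. Their median log2 change was -0.11, -0.37 and 0.37 in these contrasts. ELF3 had 28.0 ± 1.02 FPKM in HC, 13.9 ± 1.19 FPKM in MC and 60.0 ± 18.9 FPKM in LC (SD, n = 3 each; MC minus LC -1.98 ± 0.20, limma adjusted p = 3.58e-05). OVOL2 had 7.56 ± 0.147 FPKM in HC, 4.22 ± 0.414 FPKM in MC and 8.70 ± 0.101 FPKM in LC (SD, n = 3 each; MC minus LC -0.90 ± 0.11, limma adjusted p = 9.37e-05). KLF5 and GRHL2 were also lower in MC than in LC (log2 changes -0.75 and -0.74, limma adjusted p = 0.00147 and 0.00113), GRHL2 sharing its locus with another gene of the files, and GRHL3 was higher (0.72, limma adjusted p = 0.00374). No list was tested as a set, and the lists were chosen with results of these data known.

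**Figure D5:**
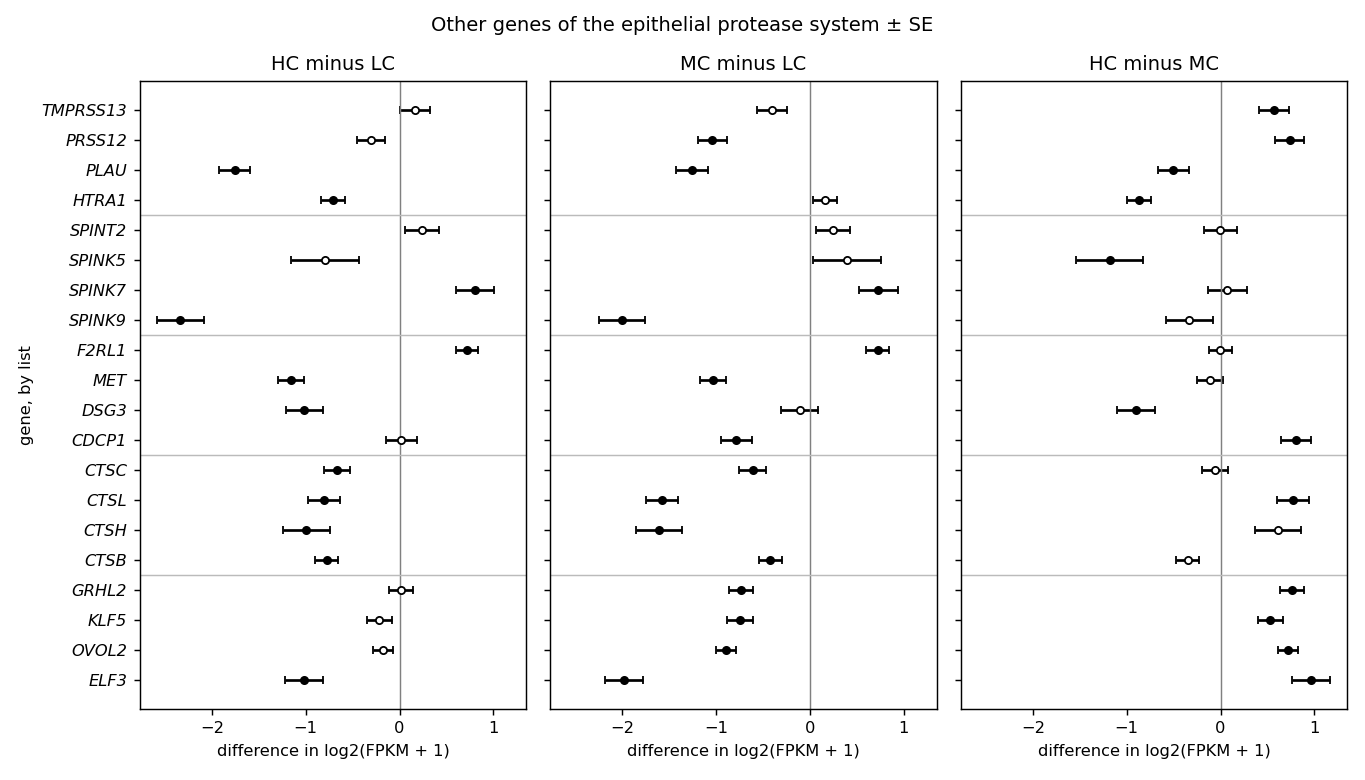
Difference in log2(FPKM + 1) ± SE of up to 4 genes per list with the smallest F test p, by contrast; filled circles passed the limma test (adjusted p under 0.05), and grey lines part the lists (other serine proteases, inhibitors, substrates and receptors, cathepsins, transcription factors). SPINK9 lies far left in HC minus LC and in MC minus LC, and the 4 transcription factors lie left of 0 in MC minus LC.

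Across the 9 libraries, which share their diets and their scaling, Pearson correlations of log2(FPKM + 1) between members are given as a description. KLK12 and KLK13 went together (r = 0.951), as did ST14 and SPINT1 (r = 0.877) and PRSS27 and PRSS8 (r = 0.849), while KLK12 and PRSS27 did not (r = -0.247). The genes most like PRSS27, of all genes tested that are no members, were the nitric oxide synthase NOS2 (r = 0.980), the mitochondrial carrier SLC25A25 (0.979), LOC106503478 (0.976) and the phospholipase PLA2G2F (0.976). NOS2 had 24.7 ± 8.90 FPKM in HC, 15.9 ± 1.39 FPKM in MC and 6.55 ± 0.490 FPKM in LC (SD, n = 3 each), the steps of PRSS27. The genes most like PRSS8 were CTSA (r = 0.976), which shares its locus with another gene, RPTN (0.965), SESN2 (0.964) and MAP3K9 (0.951). For KLK12 and KLK14, added after their values were seen, the nearest were ZNF672 (0.989), CITED2 (0.987), LOC102185323 (0.984) and TNK2 (0.983), and TLE4 (0.984), ALOX12B (0.980), ARSE (0.977) and HMOX1 (0.976). ALOX12B, a lipoxygenase of the lipid barrier of epidermis, stood at 6.57 ± 1.88 FPKM in HC, 0.266 ± 0.0763 FPKM in MC and 2.44 ± 0.107 FPKM in LC (SD, n = 3 each), which is the order of KLK14.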

How the data were processed

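The 9 files hold 1 value per gene and library, deposited by the authors as FPKM. Per the submitters' processing notes they used Bowtie 1.2.0 and Cufflinks 2.2.1, and the unit FPKM follows from that tool and from the values, not from a label. For the genome build, the strand and reads with several matches, the sources used here give nothing. Chromosomes were taken from RefSeq's gene table for the goat (assembly ARS1.2), by the names shared with it. Starts in the files count from 0 (5 of 5 mitochondrial genes), so 1 was added. Lines named as dates (18 to 21 in MC and LC files, 0 in HC files) were left out, and genes on several lines were summed. The HC files also hold 11468 to 12038 empty lines against 0 in the others, so their preparation may have differed, which cannot be told apart from the diet.

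Of 11879 genes with at least 1 FPKM in 3 libraries, 211 not listed in every library were left out, and 11668 were tested. Values were taken to log2(FPKM + 1) and compared in 1 fit of all libraries with limma 3.58.1 in R 4.3.3 (1 mean for each diet, moderated with a trend and robustly, statmod 1.5.0, two-sided, Benjamini-Hochberg adjustment over all genes per contrast, threshold 0.05). The fit was also run on simulated data that took their means and spreads from the main fit. Of 200 changed genes it recovered 90% to 92.5% at a log2 change of 1, by contrast, and 0% to 2.5% at 0.5. In the data, 2917 to 3894 genes were called per contrast, far more than the 200 changed here. The adjustment depends on that share, so these rates do not carry over to the data. Members, lists and the rule for named genes (all members, up to 4 genes per list by F test p, 4 genes most correlated with PRSS27 and with the most abundant member tested) were chosen with earlier results of these data known. KRT4, CNFN, TGM1, CTU1, C18H19orf48, GRHL3, DSG1, CDSN, ASPRV1 and TP63 were added after their values were seen. Alternatives changed the pseudocount, filter, scaling, moderation, replicate block and libraries used. Tables were handled in Python 3.11.15 with pandas 2.3.3 and numpy 2.4.6, and plots were made in matplotlib 3.10.9.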

Additional observations from a re-analysis of the deposited data

How the results depend on the processing

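Of 360 recomputed log2 changes of the members, PRSS27 in HC minus LC not counted, 338 kept their direction and their side of the threshold, 12 lost a call, 3 gained one and 7 turned sign. Many of these could not change direction. Changing the filter, the values not listed, the moderation or the replicate block left each log2 change of a member as it was. So did leaving out libraries of the diet outside a contrast. In those settings only the p-value could move, so the 338 overstate how far direction was tried. KLK12 in MC minus LC and HC minus MC, KLK14 in MC minus LC and HC minus MC, KLK13 in MC minus LC, and PRSS27 in MC minus LC and HC minus MC kept their calls in all 18 alternatives. The entry of KLK13 into the test rested on HC and LC. The PRSS27 contrasts share libraries with the one for which the gene was chosen. For these 2 genes, calls that held are therefore no independent support. The sign turned for ST14 in HC minus LC with median-of-ratios scaling (0.11), quantile normalization (0.075) and without HC replicate 1 (0.045), LC replicate 2 (0.0602) or LC replicate 3 (0.0601; leaving out 1 library gave -0.16 to 0.0602), and for SPINT1 in MC minus LC without LC replicate 1 (leaving out 1 library gave -0.0063 to 0.15) and with LC replicate 3 as the sole LC library (-0.0035), none past the test. The number of genes past the test was 2939 in HC minus LC, 3894 in MC minus LC, 2917 in HC minus MC and 5274 over the 3 diets. Leaving out 1 library gave 1753 (without HC replicate 3) to 2798, 2834 to 3924, 1608 (without HC replicate 3) to 4022, and 3968 to 5747; HC minus MC also gave 1791 without HC replicate 2, 1669 without MC replicate 1 and 1689 without MC replicate 2. With LC replicate 3 as the sole LC library, assumed to vary like the other diets, HC minus LC gave 1283 and MC minus LC 2196, and with the smooth muscle covariate HC minus MC gave 972; the covariate and the sole library were chosen after seeing the data. The cause of these differences was not tested. The main fit takes no account of the replicate numbers. Of 9 same-numbered pairs, 6 had a correlation of deviations over 0.1 (range -0.076 to 0.504). Different-numbered pairs ran from -0.494 to 0.310, and not every sample correlated best with its own number. These values do not decide whether the numbers pair the samples. With the number as a replicate block the counts were 3751, 4613, 3871 and 6418, and PRSS8 in HC minus MC had an adjusted p of 0.0495. Depth is unknown, and values under 1 FPKM, as of KLK10, rest on few fragments; without a filter KLK10 had a log2 change of -0.97 in MC minus LC (limma adjusted p = 0.00103).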
